A study of Caenorhabditis elegans with 2 samples.

Results

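The genes described here encode the protein factors that start, extend and end translation in Caenorhabditis elegans. They were all protein-coding genes of the Ensembl annotation of assembly WBcel235 whose name begins with eif-, iff-, ife-, ifg-, eef-, eftu- or erfa-, which gave 42 of 19973 protein-coding nuclear genes. They comprised 31 initiation factor genes (25 eif-, 5 ife- and 1 ifg- gene), 6 elongation factor genes (eef-), 2 genes of eIF5A (iff-), 2 release factor genes (erfa-) and eftu-2. The data were peak lists of chromatin immunoprecipitation sequencing (ChIP-seq), which maps where a protein sits on DNA, for PAX-3, a paired-box transcription factor. The single group held 2 biological replicates of whole L1 larvae of mixed sex, 6 h old and starved after bleaching. The strain was OP190 (unc-119(ed3) III; wgIs190), whose inserted transgene adds a GFP-FLAG tag to the C-terminus of PAX-3. The precipitation is described as anti-GFP, whereas the antibody label reads pax-3, and the size range given for sonication is 200 to 800 bp. The expression of the tagged protein from a transgene and the mixture of all cell types limit the group as a model. A larger share of cells with PAX-3 at a site and more PAX-3 at that site per cell cannot be told apart.

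Initiation factors assemble the ribosome on an mRNA: eIF2 carries the initiator tRNA, eIF2B recharges eIF2 with GTP, eIF4E binds the mRNA cap, eIF4G is the scaffold beside it, and eIF3 ties the mRNA to the small subunit. Elongation factors then drive each cycle: eEF1A delivers the charged tRNA, eEF1B and its partner eEF1G recharge eEF1A, and eEF2 moves the ribosome by a codon. eIF5A, first named as an initiation factor, acts mainly during elongation, and the release factors eRF1 and eRF3 end the chain at a stop codon. Not every name fits the heading: eftu-2 is the orthologue of human EFTUD2, a GTPase of the spliceosome, and eif-4A3 is a helicase of the exon junction complex. By its name eif-4A3 was still counted among the 31 initiation factor genes, whereas eftu-2 was kept apart.

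A gene was scored by the peak summits between 1000 bp upstream and 200 bp downstream of its annotated start, termed its promoter window. The list filtered by the irreproducible discovery rate (IDR, a measure of how well replicates rank the same peaks) held 2139 peaks, which were the 2139 peaks of highest signal among the 30000 of the pooled relaxed list. Signal is the authors' value for each peak and is set side by side only within a list, and ranks count from 1 at the highest signal. For each replicate, the 2139 peaks of highest signal of its own 30000 were used in the same way. Neither an input nor an unrelated GFP library was analysed here, and the read depth is unknown. There is 1 group, so no test between conditions was possible, and counts of genes are set beside all protein-coding genes as a description. Percentages carry 95% Wilson intervals, which cover counting error only, because genes are not replicates.

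PAX-3 summits in the IDR list lay in the promoter windows of 11 of the 42 factor genes, 26.2% (interval 15.3 to 41.1), against 1397 of all 19973 genes, 6.99%. Among initiation factors 5 of 31 had such a summit (16.1%, interval 7.09 to 32.6), and among elongation factors 5 of 6 (83.3%, interval 43.6 to 97). The difference, initiation minus elongation, was -67.2 percentage points (Newcombe interval -83.6 to -24.2). The remaining gene was iff-2 of eIF5A, and neither release factor gene nor eftu-2 had a summit in this list. In the highest-signal peaks of replicate 1 the initiation factors reached 6 of 31 and the elongation factors 5 of 6, against 6.7% of all genes. In those of replicate 2 the counts were 7 of 31 and 5 of 6, against 7.1% of all genes. In the pooled relaxed list 28 of the 42 factor genes had a promoter summit (66.7%, interval 51.6 to 79), against 36.7% of all genes, with 20 of 31 initiation factors and 5 of 6 elongation factors. Each replicate's top list gave the same 5 elongation factor genes as the IDR list, while the initiation factor genes differed by those named below.

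**Figure D1:**
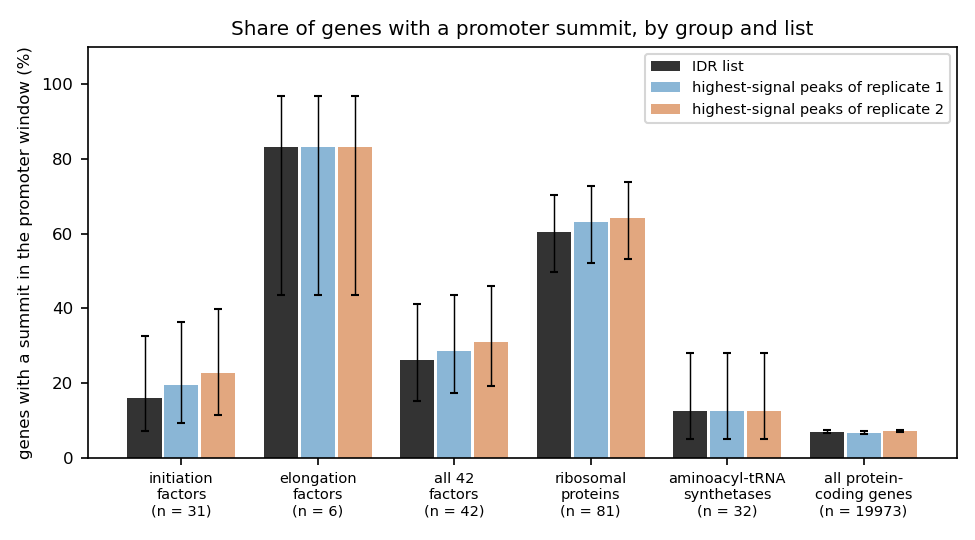
Bars give the percentage of genes with a summit in the promoter window (1000 bp upstream to 200 bp downstream of the start), for the IDR list and for the 2139 highest-signal peaks of each replicate, with 95% Wilson intervals that cover counting error only. Initiation factors stood at 16.1%, 19.4% and 22.6%, elongation factors at 83.3% in all 3 lists, and all protein-coding genes at 6.99%, 6.7% and 7.1%.

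Initiation and elongation factor peaks overlapped in strength. The highest IDR promoter summit had a median signal of 491 over the 11 factor genes, against 213 over the 1397 genes that had one. The median was 292 over the 5 initiation factors and 491 over the 5 elongation factors, but eif-3.B stood above all 5 elongation factor peaks and eif-3.C above all but that of eef-1A.2. By rank, iff-2 (38), eif-3.B (86), eef-1A.2 (99), eif-3.C (108), eef-1A.1 (127), eef-1G (185) and eef-2 (203) all stood within the highest 210 of the 2139 peaks. The same 7 genes held ranks 43 to 249 in replicate 1 and 41 to 157 in replicate 2. Their peaks were also narrow: these 7 peaks spanned under 250 bp, as did 11.2% of IDR peaks and 65.7% of the highest 210, whereas 85.8% of IDR peaks had the width of 424 bp. Narrowness therefore went with high signal in the list as a whole.

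Sequence around the summit is shown for 4 of the factor genes with the strongest peaks between annotated genes, so that the bases under the peaks can be read. Each stretch comes from the RefSeq copy of WBcel235, runs 5′ to 3′ on the strand of the gene and stops before the gene start. For iff-2 (chrII:8561368-8561588, minus strand) and eif-3.B (chrII:14795014-14795313, plus strand) capitals mark the 11 bases centred on the summit. For eef-1A.2 (chrX:7823124-7823384, plus strand) and eef-1G (chrV:10965540-10965718, plus strand) capitals mark bases that both share. The stretch of eef-1G ends after the first 8 of those 15 bases.
iff-2: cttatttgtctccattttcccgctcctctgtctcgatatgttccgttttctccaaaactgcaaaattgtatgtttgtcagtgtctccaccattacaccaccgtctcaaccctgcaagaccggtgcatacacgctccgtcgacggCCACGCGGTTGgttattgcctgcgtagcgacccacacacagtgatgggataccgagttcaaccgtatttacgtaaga
eif-3.B: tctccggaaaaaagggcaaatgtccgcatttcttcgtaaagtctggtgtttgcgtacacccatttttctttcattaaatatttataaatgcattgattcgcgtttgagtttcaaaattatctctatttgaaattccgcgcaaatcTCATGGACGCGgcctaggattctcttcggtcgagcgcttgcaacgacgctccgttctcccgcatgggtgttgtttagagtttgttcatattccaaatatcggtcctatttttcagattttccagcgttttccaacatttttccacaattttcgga
eef-1A.2: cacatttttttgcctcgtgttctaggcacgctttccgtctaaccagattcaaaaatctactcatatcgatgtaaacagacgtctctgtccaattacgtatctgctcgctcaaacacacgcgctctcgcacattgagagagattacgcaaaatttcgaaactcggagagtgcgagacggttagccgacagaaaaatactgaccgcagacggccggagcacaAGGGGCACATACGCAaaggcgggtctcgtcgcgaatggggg
eef-1G: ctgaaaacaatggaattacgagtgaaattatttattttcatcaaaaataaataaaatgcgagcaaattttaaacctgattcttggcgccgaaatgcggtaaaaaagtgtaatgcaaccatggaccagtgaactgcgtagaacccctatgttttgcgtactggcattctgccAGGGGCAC
The shared run reads AGGGGCACATACGCA in both genes, on the gene's own strand. It begins 310 bp upstream of the start of eef-1A.2 and 8 bp upstream of that of eef-1G, in each case downstream of the summit, from 70 to 84 bp past it in eef-1A.2 and from 35 to 49 bp in eef-1G. The run was found after the summit windows (201 bp) of the factor genes had been compared with each other. Over their 55 pairs the longest shared run had a median of 8 bases, and only 2 pairs reached 15 or more, the others going no higher than 11. The assembly holds 5 copies of the run, on either strand, and 3 of the 2139 IDR summit windows hold it. It occurred in the promoter windows of 5 of 19973 genes, 0.025%. Of these, eef-1A.2, eef-1G and its divergent neighbour ctf-4 had an IDR summit by the way the run was found. The other 2, icd-1 and vps-32.1, share 1 IDR summit (signal 454, rank 222). With a stretch of 11 bases of the run alone, 14 genes matched, and the same 5 had an IDR summit, against 6.99% of all genes. Only the 1 summit shared by icd-1 and vps-32.1 was outside the search, so these counts do not tie the run to binding. A match describes letters and names no bound factor.

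Within eIF3, the scaffold of the initiation complex, 3 of the 11 genes so named had an IDR promoter summit (27.3%, interval 9.75 to 56.6), and they were the strongest initiation factor peaks. The eif-3.B peak (chromosome II, 14795072 to 14795273) had a signal of 668 in the pooled data, 325 in replicate 1 and 338 in replicate 2, with the summit 240 bp upstream of the start. The eif-3.C peak (chromosome I, 9979787 to 9980013) had 606, 309 and 287, with the summit 252 bp upstream. Both subunits belong to the core of eIF3, and both peaks lay between genes and in the window of no other protein-coding gene. The eif-3.E peak (chromosome I, 10642280 to 10642703), 211 bp upstream, was weaker, with 292 in the pooled data, 123 in replicate 1 (rank 685) and 161 in replicate 2 (rank 380). It lay in the window of B0511.17 as well.

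A further 3 eIF3 genes stood just under the end of the IDR list, whose lowest signal was 117. The promoter summit of eif-3.I had a pooled signal of 115 (rank 2229) and stood inside the highest 2139 of replicate 1 (69, rank 1851) but not of replicate 2 (39.8, rank 5820). Those of eif-3.J (112, rank 2332) and eif-3.D (111, rank 2398) were inside it in replicate 2 (ranks 1669 and 1893) but not in replicate 1 (ranks 3125 and 4143). These 3 genes are the initiation factors that the single-replicate counts added. For eif-3.H the lists disagreed more, with 56.5 (rank 2449) in replicate 2, 41.2 (rank 28200) in the pooled list and no summit in replicate 1. The subunit genes eif-3.F, eif-3.K and eif-3.L had no promoter summit in any list, and eif-3.G had a weak one in replicate 1 only (23.2, rank 28542). The genes of one complex thus ranged over the whole list, from rank 86 to no peak.

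For eIF2B, the exchange factor that reloads eIF2, 2 of 5 subunit genes had an IDR summit, and both rested on weaker evidence than the eIF3 peaks. Upstream of eif-2Bgamma lay 2 summits on chromosome II, 708 bp (signal 198, rank 912) and 917 bp (signal 192, rank 957) from the start. They fell in an intron of C15F1.5, the gene upstream on the same strand, beside the non-coding genes sup-39, mir-1831 and C15F1.14, of which the farther summit was within 14 bp. The nearer summit had a counterpart within 100 bp in the highest 2139 peaks of replicate 1 only (96.8), and the farther one in both (96 in replicate 1 and 98 in replicate 2). The sequence there was also the least unique, with 132 of its 166 stretches of 36 bases found once in the assembly, against all 166 at the other 10 genes. The summit of eif-2Bbeta (chromosome I, signal 137, rank 1679, 180 bp upstream) was closer to Y47H9C.8 than to eif-2Bbeta and had no counterpart within 100 bp in the top list of either replicate. Each replicate did have a top-list summit elsewhere in the eif-2Bbeta window, 443 bp upstream in replicate 1 and 282 bp upstream in replicate 2. The other subunits had relaxed summits only, with a pooled signal of 61.1 for eif-2Bepsilon and 48.5 for eif-2Balpha, and a replicate 2 signal of 22.6 for eif-2Bdelta.

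None of the 3 genes of eIF2 itself and none of the 5 eIF4E genes had an IDR promoter summit, against 6.99% of all genes. With so few genes, the absence does not set either group apart from that share. The upper bounds of the Wilson intervals are 56.1% for eIF2 and 43.4% for eIF4E, and the limit of 3 counts over the total is 60% for eIF4E. For eIF2, the carrier of initiator tRNA, the pooled list held a summit at eif-2gamma (66, rank 8098) and a far weaker one at eif-2beta (40.6, rank 29096), and eif-2alpha had a summit in replicate 2 alone (25.4, rank 21662). Among the cap-binding eIF4E genes, ife-2 came closest with a pooled signal of 105 (rank 2603), 47.8 in replicate 1 and 51.2 in replicate 2. The value of ife-3 was 77.6 (rank 5126), and its nearest IDR summit lay 1135 bp upstream with a signal of 271, outside the window. The value of ife-4 was 42.1 (rank 27046), while ife-1 and ife-5 had no summit in any list. The eIF4G gene ifg-1 also had none, and its nearest IDR summit was 32016 bp upstream.

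The remaining initiation factor genes stood low as well. The pooled signal was 77.4 for eif-4A3 (rank 5164), 62.5 for eif-2A (rank 9583), 53.4 for eif-1 (rank 15163), which helps the ribosome scan for the start codon, and 40.9 for eif-6 (rank 28727), which keeps ribosomal subunits apart. The genes eif-1.A and eif-2D had no promoter summit in any of the 4 lists. Over the 31 factor genes without an IDR promoter summit, 22 had their nearest IDR summit more than 10000 bp away. The share over all genes was not counted for this distance, so the count does not set the factor genes apart.

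**Figure D2:**
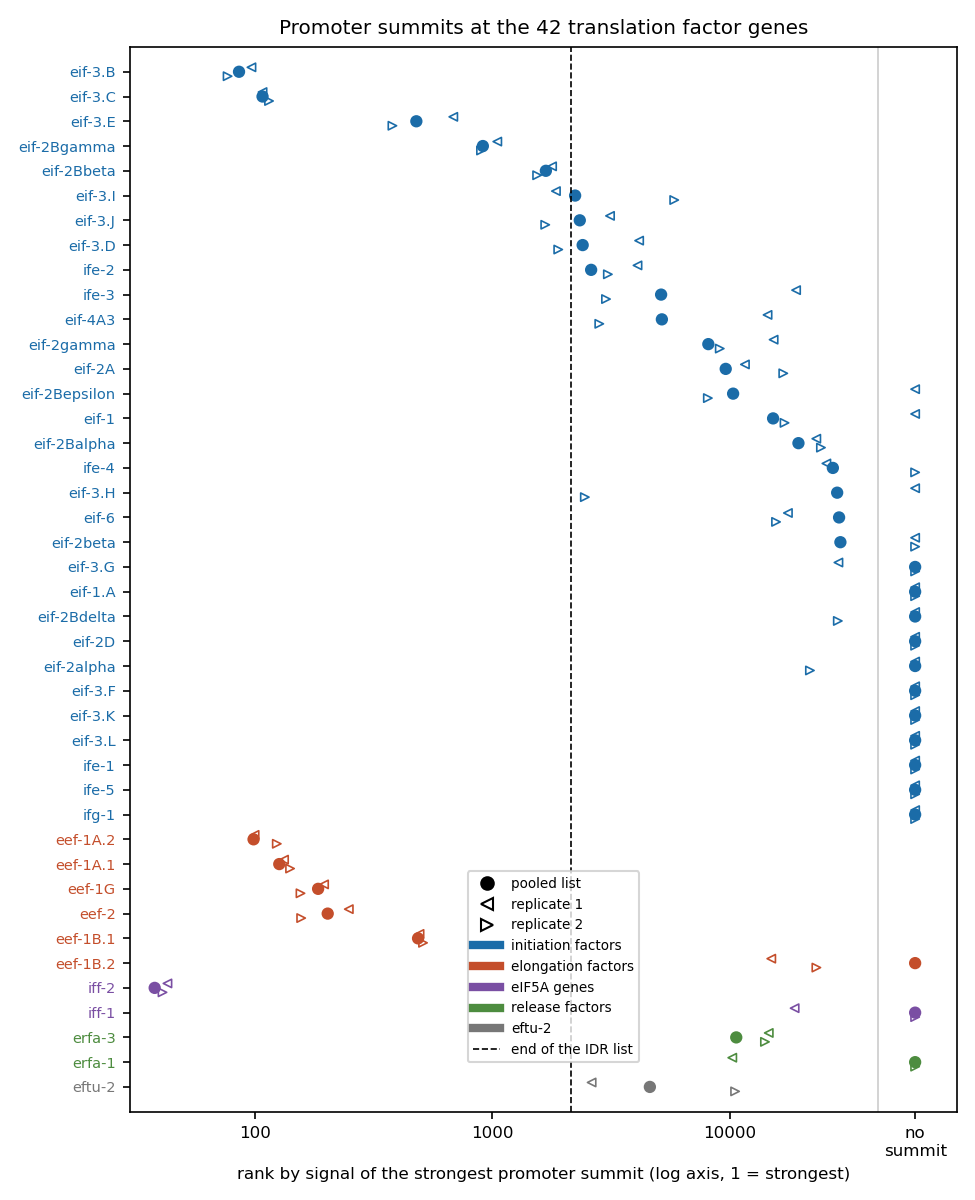
Each line is 1 of the 42 factor genes, and symbols give the rank by signal (log axis, 1 the strongest) of its strongest promoter summit in the pooled relaxed list and in the relaxed list of each replicate, with the dashed line at the end of the IDR list, rank 2139. The initiation factors spread from rank 86 to no summit, while 5 of the 6 elongation factors lay between ranks 99 and 487 in the pooled list.

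Among the elongation factors all 4 of the genes for eEF1A and for eEF2 and eEF1G had strong peaks. The eEF1A genes, which encode the carrier of charged tRNA, had near-equal peaks at near-equal distances. The eef-1A.2 peak (chromosome X, 7823182 to 7823390) had a signal of 620 in the pooled data, 320 in replicate 1 and 280 in replicate 2, with the summit 380 bp upstream. The eef-1A.1 peak (chromosome III, 6971983 to 6972192) had 569, 290 and 268, with the summit 371 bp upstream. The upstream neighbour sek-1 of eef-1A.2 ended 2617 bp away, and that peak lay in the window of no other protein-coding gene. The non-coding gene R03G5.8 was 111 bp from its summit. The summit of eef-1A.1 fell inside cel-mir-5549, a microRNA gene, and also in the window of the divergent gene rfc-4, whose start is the closer.

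The peaks of eEF1G and eEF2 lay at the gene start. For eef-1G, which encodes a partner subunit of the exchange factor, the peak (chromosome V, 10965606 to 10965771) had a signal of 491 in the pooled data, 249 in replicate 1 and 254 in replicate 2, and its summit was 43 bp upstream. For eef-2, the gene of the translocation factor, the peak (chromosome I, 9163423 to 9163613) had 475, 225 and 253, with the summit 16 bp upstream. Both lay between divergent genes, with ctf-4 starting 179 bp from eef-1G and clsp-1 264 bp from eef-2, so neither peak belonged to 1 gene alone. The exchange factor gene eef-1B.1 had a weaker peak (chromosome III, 7973155 to 7973578) with 287, 151 and 135. Its summit lay 19 bp inside the gene, in a non-coding part of an exon that overlaps the non-coding gene F54H12.9, and also in the window of aco-2. The second exchange factor gene, eef-1B.2, was the exception: it had no pooled summit and only weak summits in replicate 1 (30.4, rank 14897) and replicate 2 (24.8, rank 23059).

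A second pair of elongation factor windows also shared sequence, found in the same search. The windows of eef-1A.1 and eef-2 held 16 identical bases on opposite strands, 6 to 21 bp upstream of the eef-1A.1 summit and 9 to 24 bp downstream of the eef-2 summit. The assembly holds 4 copies, and 4 of the 2139 IDR summit windows hold the run, among them those of eef-1A.1 and eef-2 by the way it was found. The run was in the promoter windows of 7 genes, 0.035% of all: eef-1A.1 with rfc-4 and eef-2 with clsp-1, whose summits the search had used, and pbs-1, K08D12.3 and rpl-11.2, which also had an IDR summit. The letters GTCACG, contained in sites of vertebrate Pax paired domains, were searched on both strands of the same windows of 201 bp. They occurred in 1 of 11 factor windows, that of eef-2, and in 8.56% of IDR windows. TAATTA, the palindromic core of many homeodomain sites, occurred in 0 of 11 and in 7.9% of IDR windows. CACGTG, a core bound by many bHLH proteins and also searched on both strands, occurred in 0 of 11 and in 9.07% of IDR windows. The GC content of the 11 windows ranged from 31.3% to 50.2% with a median of 42.3%, against a median of 41.3% over all IDR windows.

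The 2 genes of eIF5A, a factor that carries the modified amino acid hypusine, stood far apart. The iff-2 peak (chromosome II, 8561310 to 8561556) was the strongest of all factor genes, with a signal of 854 in the pooled data, 446 in replicate 1 (rank 43) and 406 in replicate 2 (rank 41). Its summit was 72 bp upstream of iff-2 and also in the window of F54C9.14, which starts 934 bp away on the other strand. In contrast, iff-1 had a single weak summit in replicate 1 (28, rank 18676) and none in the pooled list. The hypusine-forming enzyme genes dhps-1 and dohh-1 had no promoter summit in any list. The release factor gene erfa-3 had a pooled signal of 60.4 (rank 10612), erfa-1 a summit in replicate 1 alone (34.8, rank 10211), and eftu-2 a pooled signal of 80.9 (rank 4597).

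**Figure D3:**
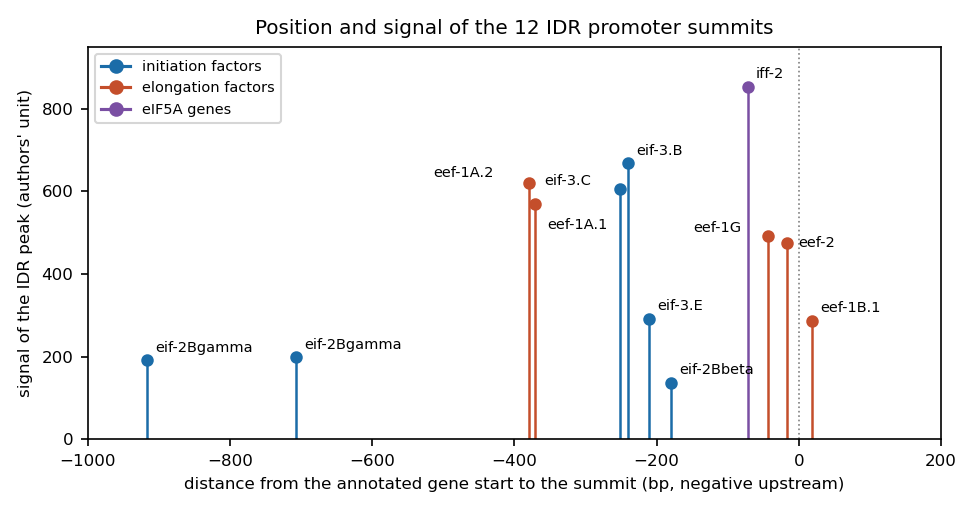
The 12 IDR promoter summits of the 11 factor genes are placed by distance from the annotated start (bp, negative upstream) and by the signal of their peak. The eEF1A peaks stood at -380 and -371 bp and the eIF3 peaks between -252 and -211 bp, and 10 of the 11 genes had their highest summit within 400 bp of the start.

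Most of these summits stood close to the start and in shared promoters. Within 400 bp were 10 of 11 factor genes, and 71.8% of the 1397 genes with an IDR summit. The median distance was -211 bp over the factor genes and -244 bp over all. The highest summit of 7 of the 11 fell in the window of another protein-coding gene too, as it did for 51.3% of all. With only the summits that lay in the window of 1 gene, initiation factors had 3 of 31 (9.68%) and elongation factors 1 of 6 (16.7%), against 3.42% of all genes. The difference, initiation minus elongation, was then -6.99 percentage points (Newcombe interval -47.2 to 13.5). That setting drops every summit that a neighbour's window also holds, so it cannot tell to which gene a shared summit belongs. When each summit was given to the nearest start alone, eef-1A.1 and eif-2Bbeta lost theirs, and initiation factors had 4 of 31 against 4 of 6 elongation factors. The difference in this case was -53.8 percentage points (Newcombe interval -78.7 to -13.8). Of the 11 genes with an IDR summit 7, and of the 31 without 17, had a divergent upstream neighbour. A same-strand neighbour ended within 350 bp of the start of 7 factor genes, of which 1, eif-2Bgamma, had an IDR summit. Whether those genes are transcribed with their neighbour as an operon was not tested. Shares over all genes were not counted for either kind of neighbour, so these counts do not set the factor genes apart.

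In both replicates the highest-signal peaks held the same summit, within 100 bp, for 9 of the 11 factor genes, and for 78.3% of the 1397 genes. The exceptions were eif-2Bgamma and eif-2Bbeta, the weakest of the 11. The 9 others had replicate signals between 123 and 446 in replicate 1 and between 135 and 406 in replicate 2, with summits at most 20 bp from the pooled one.

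**Figure D4:**
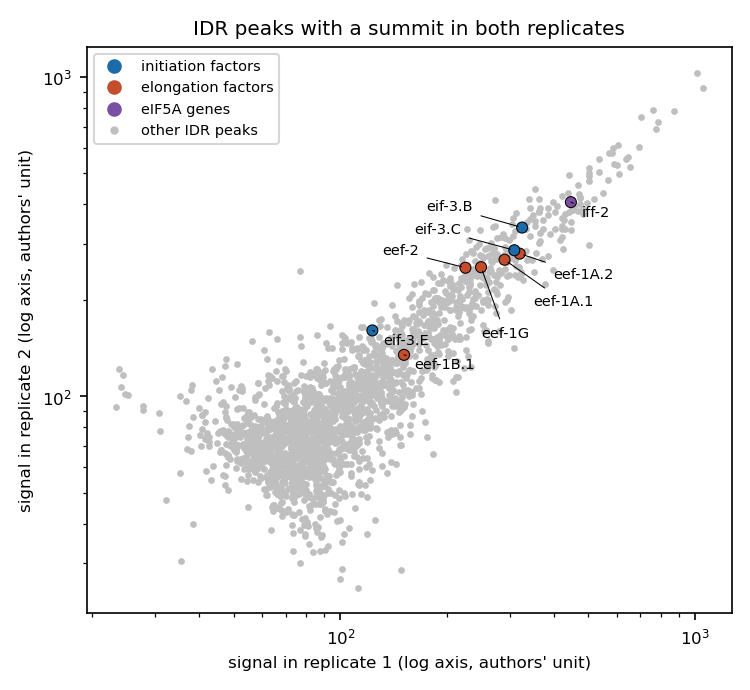
Every IDR peak with a summit within 100 bp in the relaxed lists of both replicates is plotted by its signal in replicate 1 and in replicate 2 (log axes, authors' unit), with the 9 factor genes whose highest summit was matched in colour. The 7 strongest lie in the upper right, from 225 to 446 in replicate 1 and from 253 to 406 in replicate 2.

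For genes that work beside these factors but fall outside the names, 35 names were listed, of which 6 were not found. Of the 29 found, 8 had an IDR promoter summit (27.6%, interval 14.7 to 45.7), against 6.99% of all genes. The strongest were ifet-1, an eIF4E-binding repressor (signal 715, shared with rps-1), abcf-2, an ABCF protein (683, 873 bp upstream, shared with T27E9.2 and ant-1.1), and larp-1, a La-related RNA-binding protein (566, shared with wip-1). The mitochondrial elongation factors had 3 of 4 in the IDR list, 2 of 4 in the top list of replicate 1 and 3 of 4 in that of replicate 2. In the IDR list these were gfm-1 at 359 (shared with rict-1), tufm-2 at 276 (shared with exoc-7) and tsfm-1 at 125, 943 bp upstream. The gene tufm-1 had no summit in any list. The poly(A)-binding protein gene pab-2 (143) and larp-5 (129, shared with sld-2) made up the 8, whereas pab-1 stood under the end of the list (110, rank 2436). The summits of tsfm-1 and larp-5 had no counterpart within 100 bp in the top list of replicate 1. That of pab-2 had none in the top list of replicate 2. The eIF4A gene inf-1 had no summit in any list. Among genes looked up afterwards, egl-45, an eIF3 subunit gene, and iffb-1, the eIF5B gene, had none either. The gene cif-1, whose product is shared by eIF3 and the COP9 signalosome, had no IDR summit but a pooled one (84.6, rank 4103). Cytosolic ribosomal protein genes had an IDR summit in 49 of 81 (60.5%, interval 49.6 to 70.4) and aminoacyl-tRNA synthetase genes in 4 of 32 (12.5%, interval 4.97 to 28.1). The share of the 42 factor genes lay between those. The interval of the synthetases held the 6.99% of all genes. The interval of the initiation factors overlapped that of the synthetases, and the interval of the elongation factors overlapped that of the ribosomal protein genes.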

How the data were processed

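Peak lists of 2 biological replicates, of the pooled reads and of the IDR comparison were used as the authors deposited them, on assembly ce11 per the labels (WBcel235). Their deposited columns give a signal per peak, comparable within a list only, and a −log10 q-value (1.64 to 2.91 at the 11 genes), used for no test. For the aligner, peak caller, IDR threshold and control, the entry is "not given in the sources used here". All IDR rows had the position and signal of a pooled row. Summits were compared with gene starts of Ensembl release 115 in Python 3.11.15 (pandas 2.3.3), after a check on simulated peaks. Intervals were computed from their formulas, and statsmodels 0.14.6 served only to check a Wilson interval. Summits of replicates within 100 bp of each other counted as matched. Depth is unknown, so no floor in reads is given. The members and lists were chosen with earlier results of these data known. Every factor gene with an IDR summit is named, as are the 10 with the highest pooled summit below it. Synthetase genes were taken as 1 letter followed by ars-, because a wider spelling also took unrelated genes. Bases come from the RefSeq FASTA. Alternatives changed the window, start, list, replicate and sharing of summits.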

Additional observations from a re-analysis of the deposited data

How the results depend on the processing

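The direction of the difference, lower in initiation than in elongation factors, held in all 12 alternatives, none of which used the relaxed lists. Among the 12, 11 kept the difference inside the interval of the value reported. The exception was to use only summits in the window of 1 gene. There the share was 9.52% of factor genes and 16.7% of elongation factors, and the difference was -6.99 percentage points; at this setting 7 factor genes lost their summit to sharing, by construction. Without replicate 1 or 2 the share of factor genes was 28.6% to 31%, that of initiation factors 19.4% to 22.6%, that of elongation factors 83.3%, and the difference -64 to -60.8 percentage points. A window from 2000 bp upstream, or any overlap of peak and window, added ife-3. Counting the eIF5A genes with elongation factors gave 6 of 8. The count matched in both replicates was 9 to 10. The share of factor genes in relaxed lists was 54.8% to 71.4% over its alternatives. In the pooled relaxed list the gap was smaller than in the IDR list, with 64.5% of initiation and 83.3% of elongation factors. No paired analysis was possible because there is 1 group and no comparison between groups. With 6 elongation factor genes, 1 gene moves their share from 83.3% to 66.7%. The unknown depth sets no bound on how many weaker sites the lists miss.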
